A study of Mus musculus with 12 samples.

Results

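The clones described here were T-cell receptor (TCR) β rearrangements of CD8+ tumor-infiltrating lymphocytes (TILs) that were not found in splenic CX3CR1+ CD8+ T cells of the same experiment. A clone was 1 productive nucleotide rearrangement. It was selected when it had 3 or more templates in the TIL library and 0 in the CX3CR1+ library of that experiment, a template being the estimated genome copy of 1 cell. Of 1148 TIL clones with 3 or more templates in 3 experiments, 301 met this rule, with 128 of 252 in experiment A, 81 of 367 in experiment B and 92 of 529 in experiment C. The clones were thus selected on their TIL and CX3CR1+ template counts, and those counts were not tested. The data comprised 12 libraries, which were CD8+ TILs and CD27lo CX3CR1-, CD27hi CX3CR1- and CX3CR1+ splenic CD8+ T cells from each experiment. The labels write the subsets as CX3CR1lo and CX3CR1hi. All mice were female C57BL/6 bearing MC38, a colon adenocarcinoma line, and all received anti-CTLA-4 Ab together with anti-PD-L1 Ab, so that no untreated or tumor-free group was compared. The paper's methods give male or female C57BL/6 mice for its experiments and do not state the sex for these libraries. TILs were isolated by CD8a positive selection and splenic subsets by flow sorting. The paper gives several mice per experiment. A library was therefore treated as pooled mice, whose clones cannot be told apart.

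Each developing T cell joins a V, a D and a J gene segment to form its TCRβ chain, and bases are trimmed and added without a template at the junctions (N insertions). The junction encodes CDR3, the loop that contacts the peptide most directly. Descendants of 1 rearranged cell share its nucleotide sequence, but the same sequence can also arise in separate cells. Some of the clones described here occurred with the same nucleotides in more than 1 experiment. Different rearrangements can encode the same CDR3 amino acid (AA) sequence. CX3CR1 is the receptor for the chemokine fractalkine and marks effector-differentiated CD8+ T cells, whereas CD27 is a co-stimulatory receptor that is lost in late effector differentiation.

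The rearrangements below are shown because they are the most abundant of these TIL clones, beside the nearest CX3CR1+ rearrangement where 1 base separated them. Each is the 87-base window of the assay, read 5′ to 3′, with the CDR3 codons in capitals. The window ends before the codon of the last AA of the CDR3.
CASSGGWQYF, TIL clone of experiment C: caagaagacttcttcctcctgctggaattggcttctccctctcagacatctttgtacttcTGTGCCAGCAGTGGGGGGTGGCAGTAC
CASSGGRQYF, nearest CX3CR1+ rearrangement of experiment C: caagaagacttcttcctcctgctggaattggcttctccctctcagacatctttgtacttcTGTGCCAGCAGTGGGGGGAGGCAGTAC
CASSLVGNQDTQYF, first TIL clone of experiment C: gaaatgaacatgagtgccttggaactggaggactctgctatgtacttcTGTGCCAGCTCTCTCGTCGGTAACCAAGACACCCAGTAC
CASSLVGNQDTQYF, second TIL clone of experiment C: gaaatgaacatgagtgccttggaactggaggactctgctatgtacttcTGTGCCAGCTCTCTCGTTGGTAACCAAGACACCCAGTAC
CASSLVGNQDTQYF, nearest CX3CR1+ rearrangement of experiment C: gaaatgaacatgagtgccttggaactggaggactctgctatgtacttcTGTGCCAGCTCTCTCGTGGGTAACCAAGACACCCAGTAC
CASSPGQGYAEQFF, TIL clone of experiment A: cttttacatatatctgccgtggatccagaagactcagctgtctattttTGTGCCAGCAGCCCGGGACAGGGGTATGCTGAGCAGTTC
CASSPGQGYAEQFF, nearest CX3CR1+ rearrangement of experiment A: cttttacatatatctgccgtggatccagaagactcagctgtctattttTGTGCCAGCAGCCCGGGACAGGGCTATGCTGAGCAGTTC
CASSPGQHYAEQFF, TIL clone of experiment C: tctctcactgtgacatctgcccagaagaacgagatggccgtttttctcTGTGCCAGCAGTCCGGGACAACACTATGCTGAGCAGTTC
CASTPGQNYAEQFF, TIL clone of experiment C: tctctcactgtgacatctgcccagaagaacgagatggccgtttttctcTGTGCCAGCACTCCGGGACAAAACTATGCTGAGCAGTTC
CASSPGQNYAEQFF, nearest CX3CR1+ rearrangement of both in experiment C: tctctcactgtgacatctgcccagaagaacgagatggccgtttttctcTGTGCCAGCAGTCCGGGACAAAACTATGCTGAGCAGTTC
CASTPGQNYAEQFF, TIL clone of experiment A: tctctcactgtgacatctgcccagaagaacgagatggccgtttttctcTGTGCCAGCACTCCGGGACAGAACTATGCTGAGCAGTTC
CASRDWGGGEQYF, TIL clone of experiment A: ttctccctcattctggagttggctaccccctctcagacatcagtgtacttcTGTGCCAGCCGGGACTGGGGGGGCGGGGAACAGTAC
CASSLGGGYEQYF, TIL clone of experiment B: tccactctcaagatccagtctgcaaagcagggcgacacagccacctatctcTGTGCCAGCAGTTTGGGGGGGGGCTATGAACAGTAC
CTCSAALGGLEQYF, TIL clone of experiment B: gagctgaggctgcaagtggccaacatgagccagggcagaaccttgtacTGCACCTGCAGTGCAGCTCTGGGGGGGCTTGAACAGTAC
A base difference between such a pair is written as the base of the CX3CR1+ rearrangement, its position counted from 1 at the 5′ end of the window, and the base of the TIL clone. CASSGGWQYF differed from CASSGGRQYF by A79T. The first and the second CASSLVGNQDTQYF clone differed from their CX3CR1+ neighbour by G66C and G66T, and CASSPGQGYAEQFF by C72G, none of which changed the AA sequence. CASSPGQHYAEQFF and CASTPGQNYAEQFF of experiment C differed from the same neighbour by A70C and G59C.

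Productive templates numbered 5893, 12388 and 20951 in the TIL libraries of experiments A, B and C, and 55776, 50994 and 113660 in the CX3CR1+ libraries. At these depths a count of 0 in CX3CR1+ cells allows a share of up to 0.00538%, 0.00588% and 0.00264%. A clone with 3 TIL templates, had it held the same share of both libraries, would have had 28.4, 12.3 and 16.3 CX3CR1+ templates. Of the TIL clones with 3 or more templates, 49.2%, 77.9% and 82.6% were found in the CX3CR1+ library of their own experiment, against 2.72% to 5.67% in those of the other experiments.

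The TIL clones not found in CX3CR1+ cells held 898 of the productive TIL templates in experiment A, which was 15.2% (Wilson 95% confidence interval 14.3 to 16.2). In experiment B they held 674, or 5.44% (5.05 to 5.85), and in experiment C 1641, or 7.83% (7.48 to 8.20). The share was 9.50% ± 5.11 (SD, n = 3), and it was highest in experiment A, whose interval lay above the others. Intervals cover counting error only. TIL clones that were found in CX3CR1+ cells held 60.6%, 82.3% and 82.1%, and clones of 1 or 2 TIL templates the remainder. As a share of TIL clones with 3 or more templates, clones not found made up 50.8%, 22.1% and 17.4%, or 30.1% ± 18.1 (SD, n = 3).

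**Figure D1:**
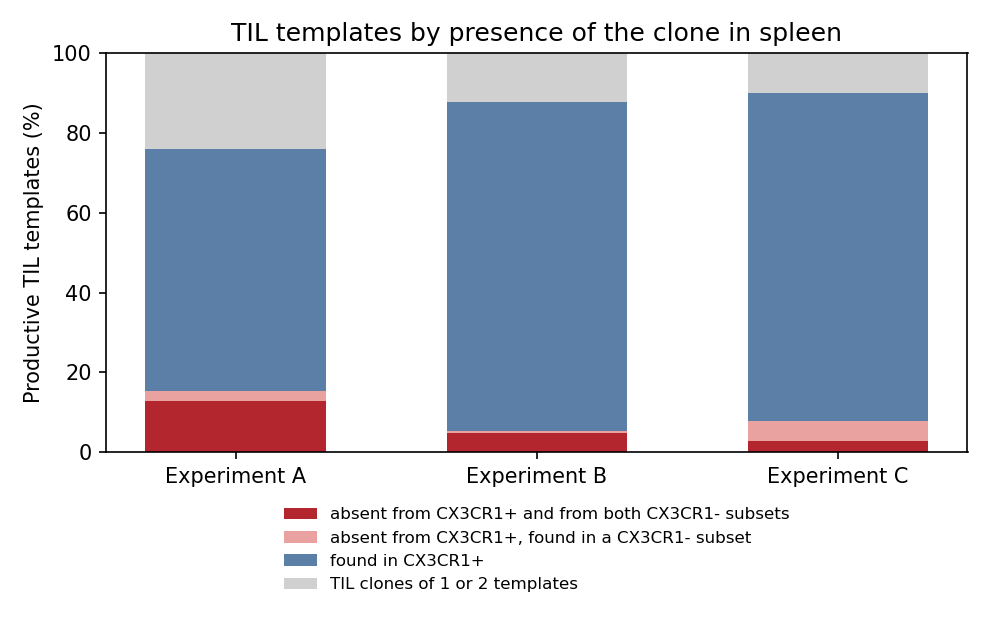
Productive TIL templates (%, y axis) of each experiment, divided by whether the clone was found in spleen. The lower red parts together are the clones not found in CX3CR1+ cells, 15.2%, 5.44% and 7.83% of templates in experiments A, B and C, and the dark part is those found in neither CX3CR1- subset.

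A clone of 3 templates stood for a larger share in the shallow TIL library of experiment A than in the deeper libraries. When the same minimum share of 0.0509% was set in all 3 TIL libraries (a minimum of 3, 7 and 11 templates), 128 of 252, 26 of 187 and 21 of 216 clones were not found in CX3CR1+ cells, or 50.8%, 13.9% and 9.72%. Experiment A was highest at this minimum too. Its own values could not change, because 0.0509% is the share of 3 templates in its library. A common minimum share does not make the depths equal, and whether depth contributed was not tested. The clones not found held 15.2%, 3.87% and 6.40% of TIL templates at that minimum.

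Most of these clones were small. Their median was 4 TIL templates in each experiment, while that of TIL clones found in CX3CR1+ cells was 7, 8 and 9. Among clones of exactly 3 TIL templates, 59.8%, 42.9% and 33.3% were not found in CX3CR1+ cells in experiments A, B and C. Among those of 50 or more templates, the corresponding values were 8.33% (1 of 12), 2.22% (1 of 45) and 8.82% (6 of 68). At the limits of the rule, 49, 36 and 32 clones lay just inside with 3 TIL templates. Just outside it were 274, 230 and 268 clones with 2 TIL templates and no CX3CR1+ template, and 9, 35 and 30 clones with 3 or more TIL templates and exactly 1 CX3CR1+ template. In experiment A, 34 of the 100 largest TIL clones were not found in CX3CR1+ cells, compared with 9 in experiment B and 8 in experiment C.

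**Figure D2:**
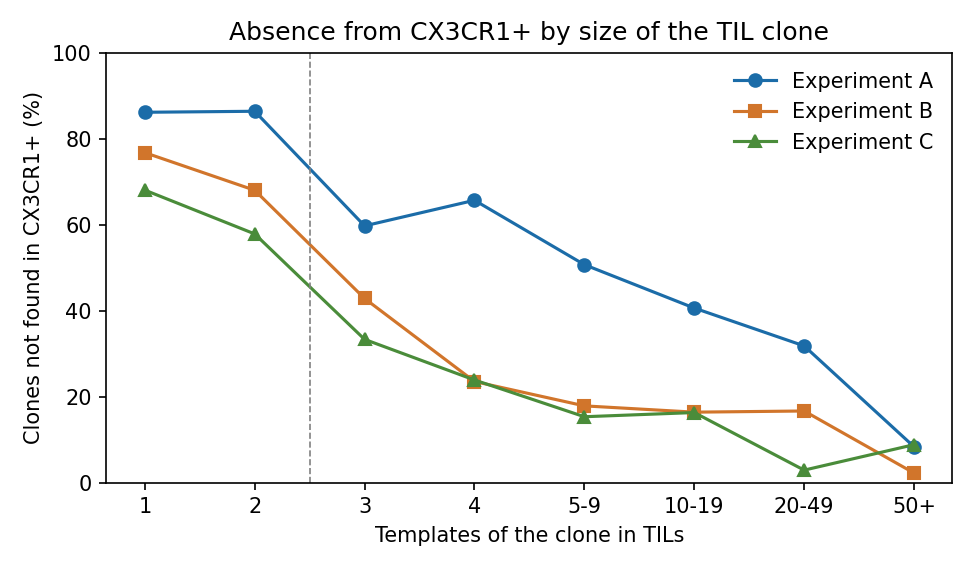
Share of TIL clones not found in the CX3CR1+ library (%, y axis) by the clone's number of TIL templates (x axis), with 1 line per experiment and the dashed line at the minimum of 3 templates. Among clones of exactly 3 templates 59.8%, 42.9% and 33.3% were not found, and among those of 50 or more at most 8.82%.

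By template count the largest of these clones was in experiment C, whose TIL library was also the deepest. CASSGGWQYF (TCRBV13-01, J gene not resolved) had 639 TIL templates, 3.05% of that library, and ranked 3 among all its clones. It had 4 templates in CD27lo CX3CR1- and 0 in CD27hi CX3CR1- cells. Its neighbour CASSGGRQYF had 3439 templates in CX3CR1+ cells, 871 in TILs and 6 in CD27lo CX3CR1- cells. The CDR3 AA sequence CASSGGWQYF was present in CX3CR1+ cells through another rearrangement with 1 template.

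The first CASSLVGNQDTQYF clone (TCRBV12-01/TCRBJ02-05) ranked 18, with 240 TIL templates. It had 26 templates in CD27lo CX3CR1- and 5 in CD27hi CX3CR1- cells, the most of any of the 301 clones in either subset of experiment C. The second had 63 TIL templates, 0 in CD27lo CX3CR1- and 1 in CD27hi CX3CR1- cells. Their CX3CR1+ neighbour had 1733 templates in CX3CR1+ cells, 354 in TILs, 12 in CD27lo CX3CR1- and 4 in CD27hi CX3CR1- cells, so that the first clone, with 0 templates in CX3CR1+ cells, was above its neighbour in both CX3CR1- subsets. In all, the CDR3 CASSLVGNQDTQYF had 2581 CX3CR1+ templates in this experiment through other rearrangements.

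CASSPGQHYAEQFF and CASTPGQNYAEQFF, both TCRBV19-01/TCRBJ02-01, had 58 and 56 TIL templates in experiment C. Their shared neighbour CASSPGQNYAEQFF had 316 templates in CX3CR1+ cells and 314 in TILs. The first had 1 template in each CX3CR1- subset, and the second had none.

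In experiment A, the largest clone was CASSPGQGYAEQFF (TCRBV05-01/TCRBJ02-01), with 97 TIL templates, 1.65% of the library, and rank 10. Its CX3CR1+ neighbour, which encoded the same AA sequence, had 168 CX3CR1+ templates and 0 in TILs. The AA sequence itself was found in both libraries, as a further rearrangement present in CX3CR1+ cells had 111 TIL templates. In all, the AA sequence had 190 CX3CR1+ templates over 2 rearrangements. Of the TIL clone itself, 1 template was found in CD27lo CX3CR1- cells. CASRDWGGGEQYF (TCRBV13-02/TCRBJ02-07) had 44 TIL templates, and the next clones, a TCRBV05-01/TCRBJ02-07 and a TCRBV17-01/TCRBJ02-01 rearrangement, had 33 and 29. None of these 3 clones was found in any splenic library of the experiment, and their nearest CX3CR1+ rearrangements were 5, 7 and 22 bases away. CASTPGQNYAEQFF of experiment A had 23 templates and was 1 base, G59C, from a CX3CR1+ rearrangement with 35 templates.

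In experiment B, no clone of this kind was among the 20 largest TIL clones. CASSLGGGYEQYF (TCRBV14-01/TCRBJ02-07) led with 57 templates and rank 39, followed by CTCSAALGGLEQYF (TCRBV01-01/TCRBJ02-07) with 44, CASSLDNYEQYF (TCRBV15-01/TCRBJ02-07) with 37, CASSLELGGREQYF (TCRBV16-01/TCRBJ02-07) with 36 and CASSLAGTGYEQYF (TCRBV03-01/TCRBJ02-07) with 30. All 5 used TCRBJ02-07. Only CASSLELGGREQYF was found in a CX3CR1- subset, with 2 templates in CD27lo CX3CR1- cells. It was also the only one of the 5 that lay 1 base, A66G, from a CX3CR1+ rearrangement, which had 323 CX3CR1+ and 305 TIL templates.

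To ask whether these clones were present elsewhere in spleen, both CX3CR1- subsets were examined. Of the 301 clones, 269 were found in neither subset, 13 in CD27lo CX3CR1- cells, 21 in CD27hi CX3CR1- cells and 2 of these in both. By experiment, 2 of 128, 2 of 81 and 9 of 92 were found in CD27lo CX3CR1- cells (1.56%, 2.47% and 9.78%), and 5, 7 and 9 in CD27hi CX3CR1- cells (3.91%, 8.64% and 9.78%). Many were single templates, namely 6 of the 13 and 15 of the 21. Clones found in neither subset, and thus in no splenic library of the experiment, held 12.8%, 4.80% and 2.77% of TIL templates.

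TIL clones that were found in CX3CR1+ cells were also found in CD27lo CX3CR1- cells in 37.1%, 31.5% and 33.4% of cases and in CD27hi CX3CR1- cells in 27.4%, 35.3% and 35.0%. CX3CR1+ clones of 3 or more templates that were not found in TILs reached 16.9%, 18.5% and 9.23%, and 22.2%, 21.4% and 12.5%. The clones not found in CX3CR1+ cells lay below all 6 of these shares in the CD27hi CX3CR1- subset. In the CD27lo CX3CR1- subset experiment C, at 9.78%, lay above the CX3CR1+ clones not found in TILs, at 9.23%.

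Compared with the mean of both other classes, the share found was 19.8 percentage points lower (difference -19.8 ± 7.33, SD, n = 3) in CD27lo CX3CR1- cells, and lower in 3 of 3 experiments, with an exact two-sided permutation p of 0.111 within experiments and 0.278 after Benjamini-Hochberg adjustment over 10 features. In CD27hi CX3CR1- cells it differed by -18.2 ± 3.69 percentage points (SD, n = 3), also in 3 of 3 experiments, with an exact permutation p of 0.0741 and an adjusted value of 0.247. The smallest p this design allows is 0.037, and neither difference passed 0.05. These clones were chosen by absence from a splenic library, and both other classes by presence in it. The rule thus bears on splenic presence itself, and how far it sets these differences was not tested. Against TIL clones found in CX3CR1+ cells alone, the differences were -29.4 ± 5.96 and -25.1 ± 1.58 percentage points (SD, n = 3), with an exact sign-flip p of 0.25 each, the smallest that 3 pairs can give.

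The CD27hi CX3CR1- libraries, with 49116 to 71574 templates, were deeper than the CD27lo CX3CR1- libraries, with 18180 to 21622. At an equal depth of 18180 templates, the expected share found in CD27hi CX3CR1- cells was 1.32%, 3.67% and 4.14% for the clones not found in CX3CR1+ cells and 17.1%, 20.3% and 16.3% for TIL clones found there. For CX3CR1+ clones not found in TILs it was 11.4%, 11.4% and 4.65%, which in experiment C was close to the 4.14%. The difference from the mean of both other classes was then -10.5 percentage points in place of -18.2 (exact permutation p = 0.0741 over 3 experiments). Clone size also differed between these classes. Among clones of exactly 3 TIL templates, 0 of 49, 1 of 36 and 4 of 32 of those not found in CX3CR1+ cells were found in CD27lo CX3CR1- cells. Of the clones found in CX3CR1+ cells at that size, 10 of 33, 5 of 48 and 13 of 64 were.

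**Figure D3:**
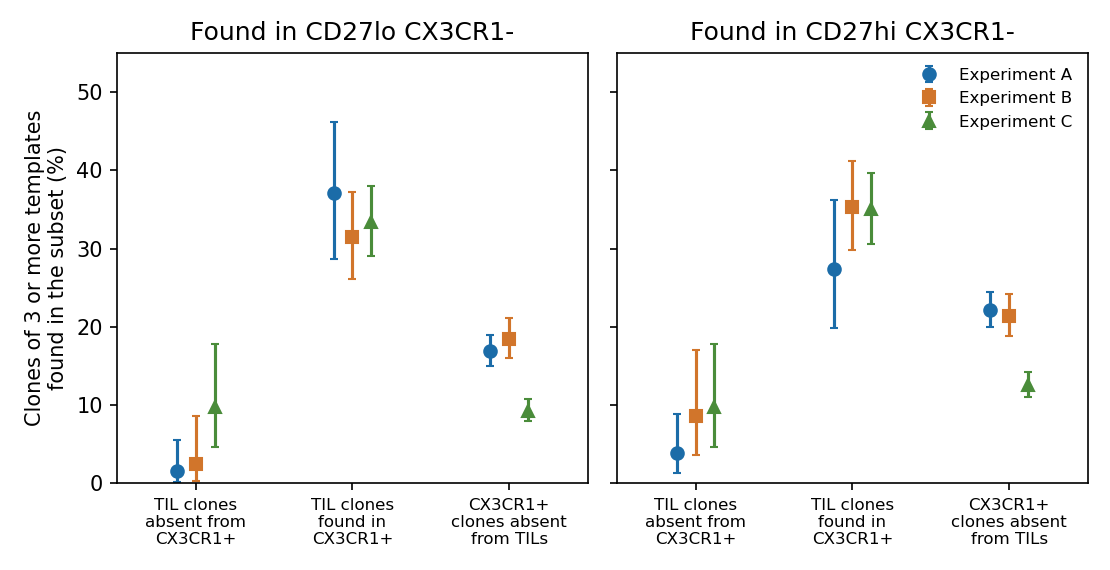
Share of clones of 3 or more templates (%, y axis) found in CD27lo CX3CR1- (left) and CD27hi CX3CR1- cells (right) for 3 clone classes (x axis), with 1 point per experiment and exact 95% binomial intervals for counting error. TIL clones not found in CX3CR1+ cells lie between 1.56% and 9.78%, below the TIL clones found there at 27.4% to 37.1%.

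In the CX3CR1- libraries of experiments A and B, no clone of this kind had more than 3 templates. In experiment A, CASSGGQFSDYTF (TCRBV13-01/TCRBJ01-02), with 14 TIL templates, had 2 in CD27lo CX3CR1- cells, and the 5 clones found in CD27hi CX3CR1- cells had 1 template each. In experiment B, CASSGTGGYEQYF (TCRBV13-03/TCRBJ02-07), with 4 TIL templates and 0 N insertions, had 3 in CD27hi CX3CR1- cells.

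V gene use was broad. TCRBV19-01 was used by 32 of the 301 clones, TCRBV13-02 by 26, TCRBV05-01 by 23, TCRBV13-01 by 20 and TCRBV12-01 by 19. The use of TCRBV19-01 was 6.25%, 7.41% and 19.6% of clones in experiments A, B and C, so that experiment C stood apart from the other experiments. TIL clones found in CX3CR1+ cells used it in 16.9%, 9.44% and 13.5%, and the difference from the mean of both other classes was 0.64 ± 8.07 percentage points (SD, n = 3; exact permutation p = 0.815). In mouse assembly GRCm38.p6, TCRBV19-01 (Trbv19) lies on chromosome 6 from 41178589 to 41179048.

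TCRBV03-01 was the only V gene of 20 tested whose shares lay on one side of both other classes. It was used by 5.47%, 2.47% and 4.35% of the clones not found in CX3CR1+ cells, which is 7, 2 and 4 clones. TIL clones found in CX3CR1+ cells used it in 5.65%, 10.8% and 6.86%, and CX3CR1+ clones not found in TILs in 7.99%, 8.08% and 8.45%. The difference was -3.88 ± 2.86 percentage points (SD, n = 3), with an exact permutation p of 0.037, the smallest possible, and 0.37 after Benjamini-Hochberg adjustment over 20 V genes. This single gene was 5% of the V genes tested, both by unadjusted p and by shares that did not overlap, and 0% passed after adjustment. A gene at the smallest possible p cannot pass adjustment over 20 genes unless many others reach it too.

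Among J genes, TCRBJ02-07 predominated, with 121 of the 301 clones. It was used by 41.4%, 45.7% and 33.7% of the clones not found in CX3CR1+ cells, against 33.9%, 24.5% and 23.1% of TIL clones found there and 29.8%, 27.4% and 28.8% of CX3CR1+ clones not found in TILs. Within every experiment the clones not found in CX3CR1+ cells were highest, although the 33.7% of experiment C was just below the 33.9% of TIL clones found in CX3CR1+ cells in experiment A. The difference from the mean of both other classes was 12.4 ± 6.46 percentage points (SD, n = 3), with an exact permutation p of 0.037, the smallest possible, and an adjusted value of 0.222 over 12 J genes. It was the only J gene at an unadjusted p of 0.05 or less, which is 8.33% of those tested, and 0% passed after adjustment. Here too, a gene alone at the smallest possible p cannot pass adjustment over 12 genes. By templates, TCRBJ02-07 held 38.1%, 59.8% and 10.4% of the templates of these clones, compared with 21.2%, 34.3% and 27.6% of TIL clones found in CX3CR1+ cells, so that experiment C turned the other way when clones were weighted by size. In experiment C, 639 of the 1641 templates belonged to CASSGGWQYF, whose unresolved J gene was counted for no J gene. Whether the direction there would hold with its J gene known was not tested. Trbj2-7 lies on chromosome 6 from 41543810 to 41543856 (GRCm38.p6), the last functional J segment of the second D-J cluster.

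TCRBJ02-01 followed with 47 clones, TCRBJ01-04 with 23, TCRBJ02-02 with 18 and TCRBJ01-02 with 17. Their differences from the other classes lay between -0.61 and 0.77 percentage points, and none passed the test. All TCRBJ02 genes together were used by 72.7%, 79.0% and 73.9% of clones not found in CX3CR1+ cells, against 76.6%, 68.2% and 63.6% of TIL clones found there. The difference from the mean of both other classes was 7.78 ± 6.40 percentage points (SD, n = 3), with an exact permutation p of 0.0741 and 0.247 after adjustment. With clones weighted by templates it was 0.406 ± 15.9 percentage points (SD, n = 3; exact permutation p = 0.963). Clones without a resolved J gene were counted as not TCRBJ02. Of the clones not found in CX3CR1+ cells this was only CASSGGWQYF, with 639 of their 1641 templates in experiment C. What the weighted difference would be with its J gene known was not tested. TCRBD02-01 was assigned to 42.2%, 53.1% and 35.9% of these clones, and 18.8%, 14.8% and 18.5% had no resolved D gene.

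**Figure D4:**
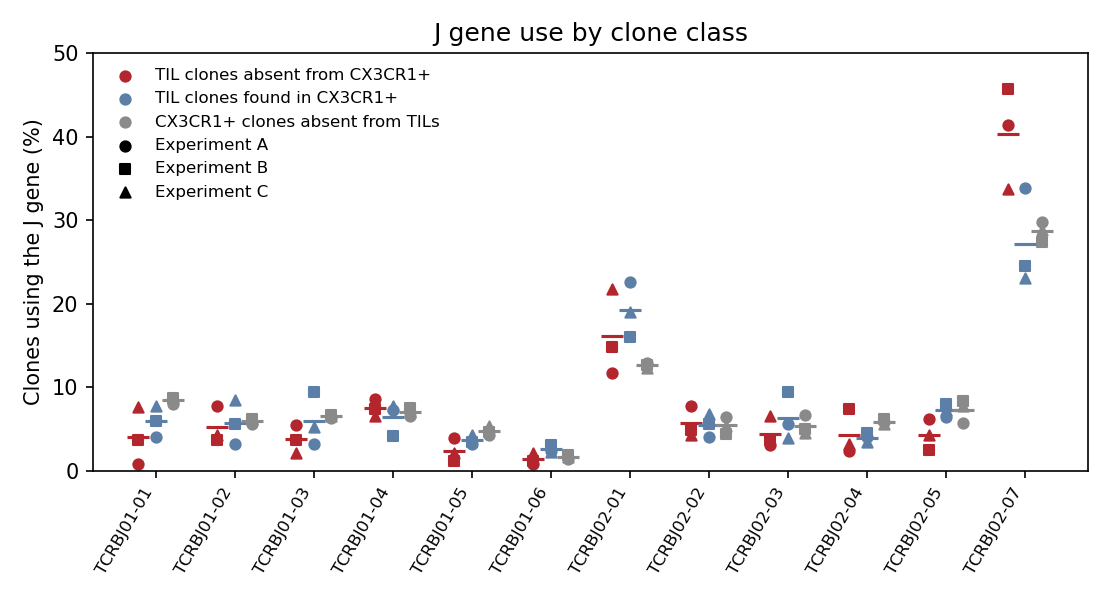
Share of clones using each J gene (%, y axis) for 12 J genes (x axis), with points for experiments A, B and C and a short line at the mean of each clone class. TCRBJ02-07 was used by 33.7% to 45.7% of TIL clones not found in CX3CR1+ cells, and the other classes lie between 23.1% and 33.9%.

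CDR3 features were close to those of the other classes. Mean CDR3 length was 13.9 ± 0.101 AA (SD, n = 3), compared with 14.0 ± 0.0488 in TIL clones found in CX3CR1+ cells (difference from the mean of both other classes 0.0102 ± 0.101 AA; exact permutation p = 0.926). N insertions averaged 3.64, 3.35 and 3.25 bases in experiments A, B and C, and 3.61, 3.71 and 3.40 in TIL clones found in CX3CR1+ cells, with a difference of -0.0618 ± 0.179 bases from both other classes (SD, n = 3; exact permutation p = 0.556). Clones with no N insertion made up 6.25%, 12.3% and 10.9% (exact permutation p = 0.815 over 3 experiments).

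The mean net charge of the CDR3, counting lysine and arginine as positive and aspartate and glutamate as negative, was -0.766, -0.840 and -0.946 in experiments A, B and C. In TIL clones found in CX3CR1+ cells it was -0.855, -0.605 and -0.616, and the sign of the difference in experiment A was thus opposite to that in experiments B and C. The difference from the mean of both other classes was -0.181 ± 0.159 (SD, n = 3; exact permutation p = 0.0741, adjusted 0.247), and it was -0.110 without experiment C and -0.0706 with a minimum of 5 templates (exact permutation p = 0.556). Hydrophobic residues at both positions 6 and 7 of the CDR3, a feature linked to self-reactive TCRs, were present in 1.56%, 4.94% and 3.26% of clones and differed by 0.836 ± 1.55 percentage points (SD, n = 3; exact permutation p = 0.222), or 1.65 without experiment A and 0.107 without experiment B. Of the 10 features tested, 0% passed 0.05 even without adjustment.

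Absence of a rearrangement did not always mean absence of its CDR3. The CDR3 AA sequence was present in CX3CR1+ cells of the same experiment through another rearrangement for 7, 18 and 24 clones, or 5.47%, 22.2% and 26.1%. These held 15.7%, 34.3% and 74.0% of the templates of all clones not found in CX3CR1+ cells. The remaining 121, 63 and 68 clones, whose AA sequence was not found in CX3CR1+ cells either, held 12.8%, 3.58% and 2.04% of TIL templates. As a share of clones, 30.6%, 27.6% and 31.4% of TIL clones found in CX3CR1+ cells had a further CX3CR1+ rearrangement of the same AA sequence, above the 5.47%, 22.2% and 26.1% in each experiment. This difference was not tested.

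Nucleotide neighbours differed by experiment. A CX3CR1+ rearrangement 1 base away existed for 5, 5 and 19 of the clones, or 3.91%, 6.17% and 20.7%, compared with 13.7%, 8.74% and 8.24% of TIL clones found in CX3CR1+ cells. Experiments A and B were thus below that class and experiment C above it. The 1-base neighbours held 14.7%, 9.94% and 72.6% of the templates of all clones not found in CX3CR1+ cells, and in experiment C they included the 6 largest. Experiment C also had the most CX3CR1+ rearrangements, 11455 against 7153 and 5591. The differing base lay in the CDR3 codons in all 29 clones, left the AA sequence unchanged in 14, and the neighbour was itself found in TILs for 15. Whether base errors in amplification or sequencing contributed to these pairs was not tested. At the other end, 110, 66 and 62 clones had no CX3CR1+ rearrangement within 2 bases.

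**Figure D5:**
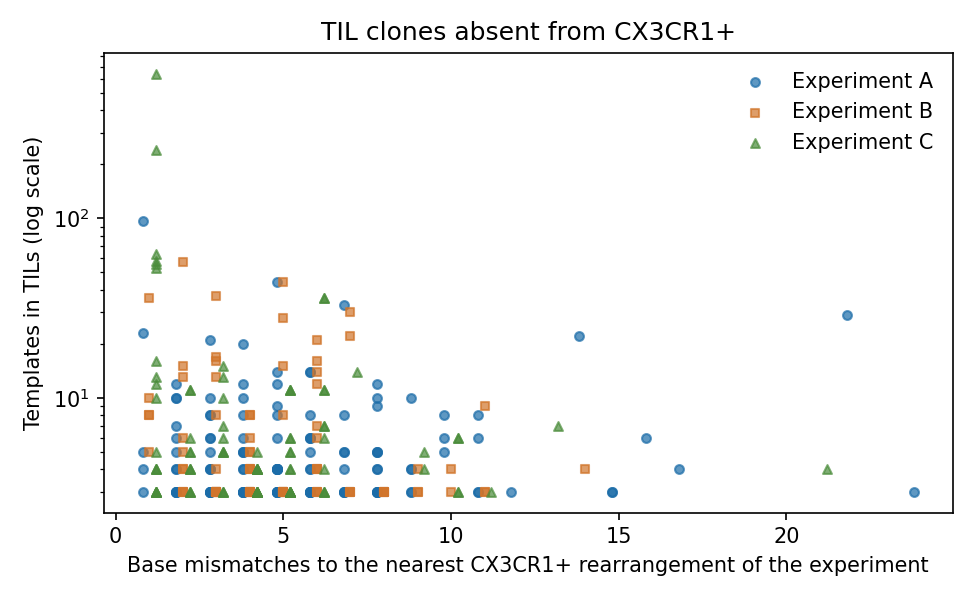
Templates in TILs (log scale, y axis) against the number of base mismatches to the nearest CX3CR1+ rearrangement of the experiment (x axis), with 1 point per TIL clone not found in CX3CR1+ cells and points of the experiments set slightly apart. In experiment C the clone of 639 templates and the next largest lie at 1 mismatch, whereas 110, 66 and 62 clones of experiments A, B and C lie at 3 or more.

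Some of these clones were related in sequence. When clones with the same V and J gene and CDR3 sequences at most 1 AA apart were joined, 27 of the 301 clones fell into 11 groups. This was not compared with the other classes. The largest group had 5 clones and 193 TIL templates, all TCRBV19-01/TCRBJ02-01. It comprised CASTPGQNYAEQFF of experiment A with 23 templates and, of experiment C, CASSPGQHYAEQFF with 58, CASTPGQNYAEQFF with 56, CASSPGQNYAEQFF with 53 and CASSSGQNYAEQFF with 3. All 5 had a CX3CR1+ rearrangement 1 base away in their experiment.

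Of the 301 clones, 26 were found with the same nucleotides in some library of another experiment, a count not compared with the other classes. Among them, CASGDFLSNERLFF (TCRBV13-02/TCRBJ01-04), named after its values were seen, had 6 TIL templates in experiment B and, in experiment C, 55 TIL, 898 CX3CR1+, 33 CD27lo CX3CR1- and 10 CD27hi CX3CR1- templates. As clones absent from CX3CR1+ cells, 3 of the CDR3 AA sequences occurred in more than 1 experiment. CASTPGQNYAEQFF did so through 3 rearrangements with 91 templates in all, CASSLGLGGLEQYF (TCRBV12-01/TCRBJ02-07) through 2 with 10, and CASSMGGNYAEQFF (TCRBV19-01/TCRBJ02-01) through 1 identical rearrangement with 15 templates in experiment B and 16 in experiment C. The rearrangement of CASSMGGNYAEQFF had 0 N insertions, and it was also present in experiment A with 2 templates in CX3CR1+ and 2 in CD27hi CX3CR1- cells. With the same nucleotides, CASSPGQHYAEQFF and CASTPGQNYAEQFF of experiment C had 3 and 5 templates in CX3CR1+ cells of experiment A. A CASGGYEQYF clone of experiment C (TCRBV13-02/TCRBJ02-07), with 10 TIL templates and 0 N insertions, had 2 TIL templates and 1 CX3CR1+ template in experiment A.

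By AA sequence, 37.5%, 48.1% and 56.5% of the clones in experiments A, B and C were found in some library of another experiment, against 55.6%, 47.9% and 41.2% of TIL clones found in CX3CR1+ cells. The difference from the mean of both other classes was 2.51 ± 13.8 percentage points (SD, n = 3; exact permutation p = 0.815), and its sign in experiment A was opposite to that in experiments B and C. A CX3CR1+ CDR3 of the same experiment 1 AA substitution away existed for 43.0%, 49.4% and 69.6% of the clones, with a difference of 1.90 ± 11.0 percentage points (SD, n = 3; exact permutation p = 0.778).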

How the data were processed

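The authors amplified TCRβ CDR3 regions from genomic DNA with the ImmunoSEQ assay, sequenced them on an Illumina NextSeq instrument, and took clone tables from the platform of that assay. The deposited template counts are whole numbers without normalization and equal the estimated number of genomes in every row. CDR3 length and N insertions (n1 and n2 insertions summed) were counts of bases as deposited. The submitters' processing notes name mm10. V and J genes were matched to RefSeq on GRCm38.p6 by name. How the platform corrects base errors or merges near-identical rearrangements is not given in the sources used here, and either would alter which rearrangements count as separate clones.

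Only productive rearrangements were used, and every share is a percent of productive templates. Libraries of 1 experiment code were paired: TIL clones were found in CX3CR1+ cells of their own experiment in 49.2% to 82.6% of cases and of others in at most 5.67%. Clones not found in CX3CR1+ cells were compared with TIL clones found there and with CX3CR1+ clones of 3 or more templates not found in TILs, each clone counted once, by permuting the 3 classes within experiments as the replicate block (27 arrangements, two-sided, exact). P-values were adjusted by Benjamini-Hochberg over 10 features, 20 V genes with 1% or more of clones, and 12 J genes, at a threshold of 0.05. The experiment (n = 3) was the unit. Expected shares at equal depth were computed analytically. Wilson and exact intervals are at 95%, and the detection floor is 3 templates.

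Clones named are the 5 largest of each experiment, up to 5 with the same nucleotides in another experiment's TIL or CX3CR1+ library, those whose CDR3 recurred, the most abundant in each CX3CR1- library and, chosen after their values were seen, members of the largest group and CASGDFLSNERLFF. V and J genes named are the 5 most used by number of clones and those whose shares did not overlap. The clones, lists and tests were chosen with earlier results of these data known. Alternatives were other template minima, the CDR3 AA as the clone, removal of 1-base neighbours, weighting by templates, clones of 3 to 9 templates, equal depth, no replicate block, and omission of each experiment in turn. The functions were tested on simulated data. Python 3.11.15, numpy 2.4.6, pandas 2.3.3, scipy 1.17.1, networkx 3.6.1 and matplotlib 3.10.9 were used. Non-productive rearrangements, the flow cytometry data and the patient study were not used here.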

Additional observations from a re-analysis of the deposited data

How the results depend on the processing

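Values are means over experiments, or differences between the clones not found in CX3CR1+ cells and the mean of both other classes, in percentage points unless a unit is given. The cause of these changes was not tested, except that a template minimum fixes how many clones can be counted. The number of clones per experiment (100.3) became 357.7, 44.3 and 20.7 with minima of 2, 5 and 10 templates, and 58.3 with 1 minimum share in all TIL libraries, an alternative chosen after seeing the data. Their share of TIL templates became 14.7% with a minimum of 2. The difference in clones found in CD27hi CX3CR1- cells was -22.9 with a minimum of 5 templates. Its exact permutation p was 0.037 without adjustment, the smallest possible. The rule bears on splenic presence here too, so no call is drawn from it. With clones weighted by templates the difference was -42.2, but the weights are the counts that chose the clones, so no call is drawn from that either. In experiment C, 639 of the 1641 templates of these clones belonged to 1 clone. The difference in TCRBJ02 use passed without adjustment with clones of 3 to 9 templates (7.96, exact p = 0.037), although TCRBJ02 was 0.406 weighted by templates (exact p = 0.963). That weighted value counts the clone of 639 templates, whose J gene was not resolved, as not TCRBJ02. Without the replicate block, exact p-values were 0.0357 for CD27lo CX3CR1- (-19.8), 0.0238 for CD27hi CX3CR1- (-18.2), 0.0476 for TCRBJ02 (7.78) and 0.0357 for net charge (-0.181 charges). With the block and otherwise the same settings, none of these 4 passed. The number of V and J genes called after adjustment was 0 in every alternative. A gene alone at the smallest possible p cannot pass adjustment in any of them, so this is no sign of stability. Without adjustment the calls ranged from 0 to 3 V genes and from 0 to 4 J genes.

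The features whose direction turned had no call in either direction. Mean CDR3 length was -0.0399, -0.172 and -0.495 AA with minima of 2 and 5 templates and weighting by templates, and -0.0744 AA against TIL clones found in CX3CR1+ cells alone. N insertions were 0.0595 bases without 1-base neighbours. Clones without N insertions were -0.993 with a minimum of 2, -1.04 weighted, -0.640 with 3 to 9 templates and -0.608 without 1-base neighbours. Hydrophobic positions 6 and 7 were -0.0468 with a minimum of 2. With a minimum of 2, without 1-base neighbours and against TIL clones found in CX3CR1+ cells alone, CDR3 found in another experiment were -1.53, -1.62 and -0.856, and CX3CR1+ CDR3 1 substitution away -2.85, -2.62 and -0.492. Leaving out each experiment in turn gave -0.0462 to 0.0506 AA for length, -0.160 to 0.0148 bases for N insertions, -0.906 to 1.76 for clones without them, -4.31 to 9.47 for CDR3 in another experiment and -3.35 to 7.65 for CX3CR1+ CDR3 1 substitution away. With 2 experiments the smallest p is 0.111, so these cannot pass the threshold. Depth limits absence in CX3CR1+ cells: at 50994 templates in every CX3CR1+ library, 129, 81 and 118 clones would be expected in experiments A, B and C.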
